A study of Homo sapiens with 6 samples.

Results

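Isolated peaks were called peaks that stood alone, with no other peak of the same list within 100 kb of either edge. They were found on chromosomes 1 to 22 in each of 2 deposited ATAC-seq peak lists. The shHMGA1 list held 1086 isolated peaks among 110930 peaks, and the control list held 961 among 125104. Together these were 2047 of 236034 peaks. They were set beside the peaks with a neighbour within 10 kb, which numbered 81793 in the shHMGA1 list and 95287 in the control list. Isolation is a matter of position alone. Members were chosen by the peak positions of the list that also gives their values, so what follows is a description, with no test.

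ATAC-seq marks open DNA by inserting sequencing adapters with the Tn5 transposase. The cells were labelled DAMI, a human leukaemic line with the disease state given as MPN/AML. In the shHMGA1 group, 3 samples were infected with a lentivirus carrying a short hairpin RNA against HMGA1, and in the control group 3 samples were infected with a control lentivirus. Tagmentation used 50000 cells per sample and 2 µl of the enzyme, and lasted 45 min at 37 °C. Each group was deposited as 1 list with no values per sample, so no difference below has a replicate check. Neither the identity of the line nor the silencing of HMGA1 could be checked from peak positions, and read depth is unknown.

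Open chromatin is unevenly packed along chromosomes. Promoters and enhancers of active genes often lie close together, whereas long stretches of closed, gene-poor chromatin hold few open sites. HMGA1 is an architectural protein that binds the minor groove of AT-rich DNA and takes part in opening chromatin. Dark Giemsa bands are on the whole richer in AT and poorer in genes than Giemsa-negative bands. An isolated peak is therefore a single called peak inside a long stretch in which the caller found nothing else.

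Long stretches without peaks were common, but few peaks had such a stretch on both sides. In the shHMGA1 list, 5033 of 110908 intervals between successive peaks (4.54%) exceeded 100 kb, and they covered 1096 Mb, or 38.0% of chromosomes 1 to 22. In the control list, 4638 of 125082 intervals (3.71%) did, covering 993 Mb, or 34.5%. Whole chromosome lengths were used, and stretches that cannot be sequenced or mapped were not taken out. The longest interval was 21.0 Mb in both lists. The median interval was 7.06 kb in shHMGA1 and 6.19 kb in control. Isolated peaks made up 0.979% of shHMGA1 peaks (95% exact binomial interval 0.922 to 1.04) and 0.768% of control peaks (0.721 to 0.818). Such intervals cover counting error only and treat peaks as independent.

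The shHMGA1 list, the shorter one, thus had 125 more isolated peaks. The ratio to control was 1.13, against 0.887 for all peaks and 0.858 for peaks with a neighbour. The ratio fell below 1 under 2 of 7 other rules, and the cause was not tested. It was 1.06 with a limit of 50 kb, 1.15 with 200 kb and 1.13 with peaks within 150 bp merged. It was 1.07 above the median area of the joined lists and 1.12 with chromosome X added. With the 50000 peaks of largest area taken from each list, 2055 shHMGA1 and 2070 control peaks were isolated, a ratio of 0.993. The counting interval of that ratio, 0.934 to 1.06, holds 1. Both counts of isolated peaks were larger than in the full lists, so cutting a list to fewer peaks left more of them isolated here. When no peak of either list was allowed within 100 kb, other than overlapping ones, 578 shHMGA1 and 704 control peaks were left, a ratio of 0.821. The 479 sites isolated in both lists count in each of these numbers. Almost all the rest had no overlap and lay over 100 kb from the other list, 98 in shHMGA1 and 223 in control. That ratio thus follows the peaks without overlap, which were 14.9% of all shHMGA1 and 24.9% of all control peaks.

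Most isolated peaks lay only somewhat beyond the 100 kb limit. The median distance to the nearest peak was 137 kb in both lists, with an upper quartile of 174 kb in shHMGA1 and 177 kb in control. Distances over 200 kb were held by 196 shHMGA1 and 171 control peaks, and distances over 500 kb by 10 and 9. The 213 shHMGA1 peaks just inside the limit (100 to 110 kb) had a median width of 346 bp and a median height of 1.69, and the 267 just outside (90 to 100 kb) had 366 bp and 1.59. In control, 161 peaks just inside had 343 bp and 1.66, and 243 just outside had 356 bp and 1.65. The limit therefore cuts through a gradual series.

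Isolated peaks were narrow. Their median width was 331.5 bp in shHMGA1 (quartiles 192 and 541) against 572 bp for peaks with a neighbour (357 and 931), a ratio of 0.580. In control it was 318 bp (192 and 502) against 556 bp (347 and 912), a ratio of 0.572. Width fell step by step with distance. In shHMGA1 the median was 650 bp for peaks within 1 kb of another, 489 bp at 5 to 10 kb, 396 bp at 50 to 100 kb, 338 bp at 100 to 200 kb and 293 bp beyond 200 kb. In control the same steps gave 626, 470, 365, 321 and 300 bp. No other step of distance in either list was narrower than the 2 that hold the isolated peaks.

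**Figure D1:**
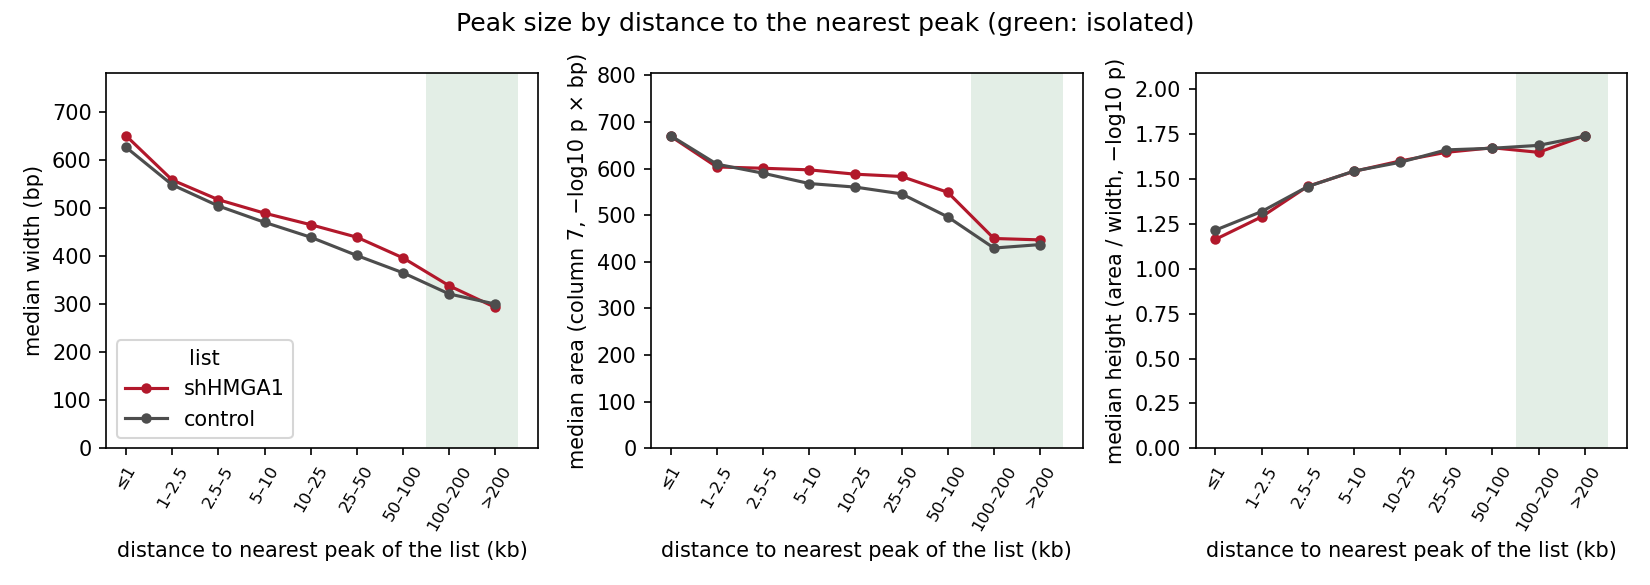
Median width in bp, median area (column 7, in −log10 p times bp) and median height (area divided by width) are on the y axes. The x axis is the distance in kb to the nearest peak of the same list. The shHMGA1 list is red, the control list is grey and the isolated steps are shaded green. Width falls from 650 bp within 1 kb to 293 bp beyond 200 kb in shHMGA1, and from 626 to 300 bp in control, while height climbs from 1.16 to 1.74 and from 1.21 to 1.74.

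A large part of the isolated peaks fell in a single narrow size class. Widths below 200 bp were held by 293 of 1086 isolated shHMGA1 peaks (27.0%, 95% exact interval 24.4 to 29.7), against 5521 of 81793 with a neighbour (6.75%). In control these were 275 of 961 (28.6%, interval 25.8 to 31.6) against 7313 of 95287 (7.67%). At the other end, 71 isolated shHMGA1 peaks (6.54%) were at least 1000 bp wide, against 22.2% of those with a neighbour. In control 61 isolated peaks (6.35%) were that wide, against 21.4%. The widest isolated peaks measured 2278 bp in shHMGA1 and 2330 bp in control.

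The widths were not spread smoothly but rose and fell. In 25 bp steps, the fullest step of isolated peaks was 175 to 200 bp in both lists, with 135 shHMGA1 peaks (12.4%) and 134 control peaks (13.9%). A second rise was fullest at 350 to 375 bp in shHMGA1 (46 peaks) and at 325 to 350 bp in control (50 peaks). The next was fullest at 525 to 550 bp in shHMGA1 (31 peaks) and at 500 to 525 bp in control (29 peaks). This last rise was slight, as the step before it held 29 peaks in shHMGA1 and 27 in control. Peaks with a neighbour had rises at nearly the same widths, 175 to 200, 325 to 350 and 500 to 525 bp in both lists, but the first was low among them, with 3.20% of shHMGA1 and 3.40% of control peaks. Each rise was sought within a range set by hand, 125 to 275, 275 to 450 or 450 to 625 bp. The first range held 42.5% of isolated peaks against 13.8% of those with a neighbour in shHMGA1. It held 44.3% against 14.8% in control. As background, DNA in the nucleus is wound on regularly spaced nucleosomes, and lengths of ATAC-seq fragments repeat with that spacing. Whether the widths of these peaks have that source was not tested.

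**Figure D2:**
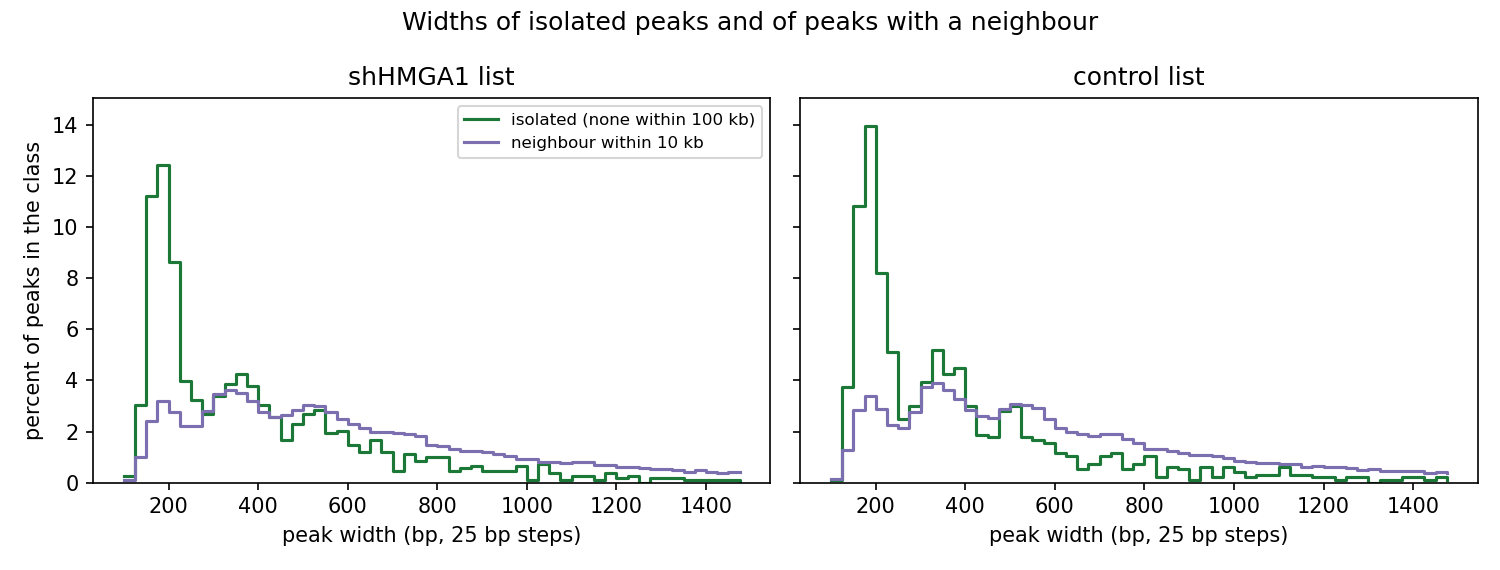
Percent of peaks in the class (y axis) by peak width in 25 bp steps (x axis), for isolated peaks (green) and peaks with a neighbour within 10 kb (purple), in the shHMGA1 list (left) and the control list (right), drawn from 100 to 1500 bp. Isolated peaks reach 12.4% and 13.9% in the step from 175 to 200 bp, where peaks with a neighbour reach 3.20% and 3.40%; lower rises follow near 350 and 525 bp.

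Isolated peaks had a smaller area under the significance curve. Column 7, which is that area over the whole peak, had a median of 449 in shHMGA1 (quartiles 288 and 904) against 630 for peaks with a neighbour (333 and 1526), a ratio of 0.713. In control it was 431 (288 and 839) against 623 (330 and 1505), a ratio of 0.692. Areas over 2000 were held by 104 isolated shHMGA1 peaks (9.58%) and 85 isolated control peaks (8.84%), against 19.5% and 19.3% of those with a neighbour. The smallest area in either list was just above 200, so a peak has to be taller the narrower it is to be listed at all.

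Height, the area divided by the width, ran the other way. It is in units of −log10 p but need not be the mean −log10 p along the peak. The smallest heights were 0.184 in shHMGA1 and 0.169 in control, where the smallest summit values were 2.82 and 2.89. Whether the caller counts area only above a threshold is not stated in any source read here. Ratios of height are therefore not read as ratios of mean −log10 p. The isolated median height was 1.67 in shHMGA1 against 1.30 for peaks with a neighbour (ratio 1.28), and 1.70 in control against 1.33 (ratio 1.28). Much of this went with where the peaks lay. The dense segments on chromosomes 4 and 9 (4 from 154000001 to 189000000, 9 from 2000001 to 21000000) held no isolated peak. The chromosome 4 segment held 14.3% of the shHMGA1 and 13.4% of the control peaks with a neighbour, and the chromosome 9 segment 9.21% and 8.32%. Without these segments the ratios of height were 1.12 in shHMGA1 and 1.15 in control, and with the neighbours weighted to the chromosomes of the isolated peaks 1.09 and 1.10. The width ratios at that weighting were 0.624 and 0.613. At the summit itself isolated peaks and peaks with a neighbour were close. The median −log10 p was 5.20 in isolated shHMGA1 peaks against 5.13, and 5.25 in isolated control peaks against 5.18. Peaks that were neither isolated nor had a neighbour had a median height of 1.62 in both lists, near that of isolated peaks. Their median summit −log10 p, 5.50 in shHMGA1 and 5.44 in control, was above that of isolated peaks and of peaks with a neighbour. Height thus set isolated peaks apart mainly from peaks with a neighbour.

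At equal area the contrast in shape held throughout the range. Each list was divided into 10 parts by the areas of its isolated peaks. In all 10 parts of both lists the isolated peaks were the narrower, with median widths 0.539 to 0.775 times those of neighbours in shHMGA1 and 0.478 to 0.773 times in control. In the part of smallest area, 62.4% of isolated shHMGA1 peaks were below 200 bp, against 24.5% of those with a neighbour, and in control 55.2% against 26.5%. Since height is area over width, the same 20 medians show isolated peaks as the taller. At equal width, isolated peaks had the larger median area in all 10 parts of both lists, by 1.04 times or more in shHMGA1 and 1.07 times or more in control. At equal area the summit −log10 p was also higher in all 10 parts, by 1.06 to 1.15 times in shHMGA1 and 1.05 to 1.17 times in control.

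Overlap of at least 1 bp with the other list was common among isolated peaks. It was seen for 897 of 1086 isolated shHMGA1 peaks (82.6%, 95% exact interval 80.2 to 84.8), where the background of all shHMGA1 peaks was 85.1% and peaks with a neighbour had 85.7%. It was seen for 666 of 961 isolated control peaks (69.3%, interval 66.3 to 72.2), where the background of all control peaks was 75.1% and peaks with a neighbour had 75.8%. Isolated peaks without overlap were 189 in shHMGA1 (17.4%, background 14.9%) and 295 in control (30.7%, background 24.9%). The difference from peaks with a neighbour was -3.09 percentage points in shHMGA1 and -6.45 in control.

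At equal area this shortfall was no longer seen with the full lists. Peaks with a neighbour, weighted to the areas of the isolated peaks, overlapped in 81.4% of cases in shHMGA1 and 68.2% in control. Isolated peaks lay 1.24 percentage points above that in shHMGA1 and 1.11 points above in control. Both neighbour values lay within the counting intervals of the isolated shares. Isolated peaks had the higher share in 7 of 10 parts in each list. In the smallest part 53.2% of isolated shHMGA1 peaks overlapped against 52.2%, and in control 26.0% against 32.2%. In the largest part all 109 isolated shHMGA1 peaks and all 97 isolated control peaks overlapped, with lower 95% bounds of 96.7% and 96.3%.

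**Figure D3:**
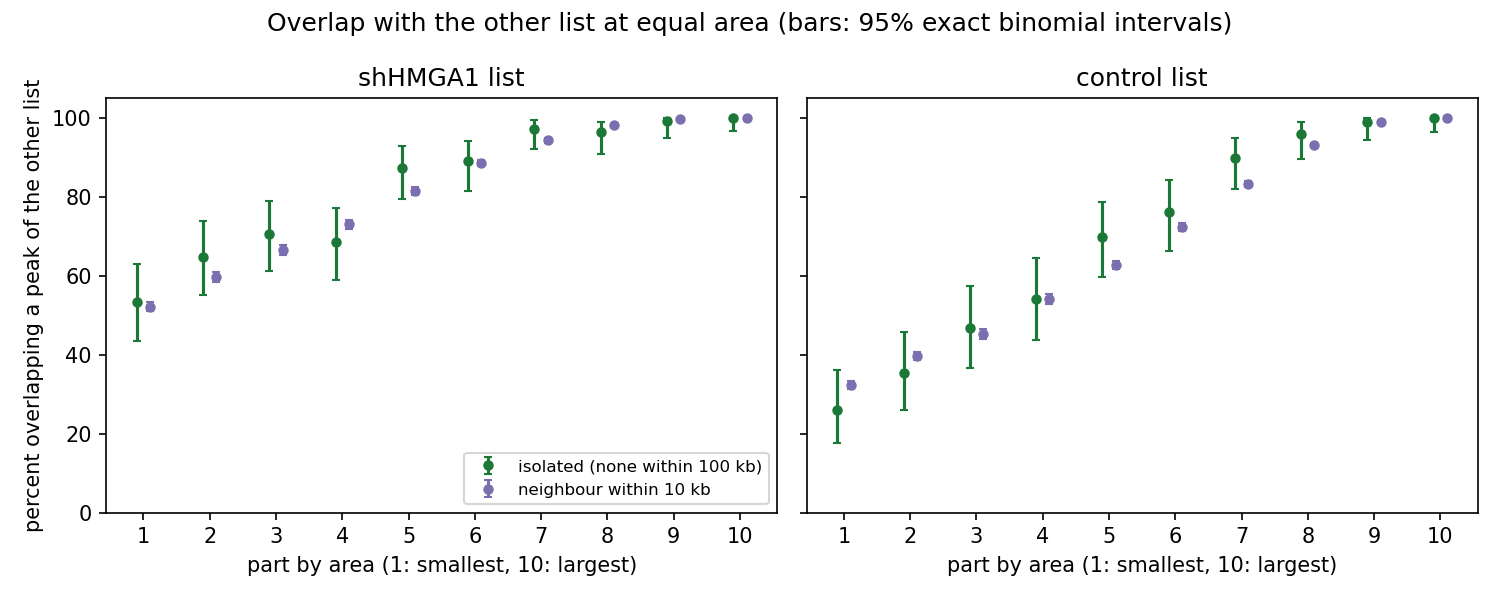
Percent of peaks that overlap a peak of the other list by 1 bp or more (y axis) in 10 parts by area, from smallest to largest (x axis), for isolated peaks (green) and peaks with a neighbour within 10 kb (purple), in the shHMGA1 list (left) and the control list (right); bars are 95% exact binomial intervals. The classes climb together, from 53.2% and 52.2% in part 1 to 100% of isolated peaks in part 10 in shHMGA1, and from 26.0% and 32.2% to 100% in control.

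That match depended on what was held equal and on what counted as overlap. At equal summit −log10 p, isolated peaks overlapped less often than peaks with a neighbour, by -4.95 percentage points in shHMGA1 and -7.55 in control. At equal height the differences were -7.63 and -12.5 points. At equal width isolated peaks overlapped more often, by 2.41 points in shHMGA1 and 3.62 in control. With the 50000 peaks of largest area from each list and area held equal, the lists differed in sign, with -4.69 points in shHMGA1 and 2.31 in control. With a peak of the other list within 500 bp counted as shared, they were -2.57 and -4.64 points. A reciprocal overlap of 50% gave the opposite sign, with isolated peaks 10.9 points above in shHMGA1 and 9.43 points above in control. Under that rule 73.6% of isolated shHMGA1 peaks and 62.4% of isolated control peaks were shared, against 62.7% and 53.0% of neighbours at equal area.

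The widest peaks overlapped most often and the narrowest least often, among isolated peaks and among peaks with a neighbour alike. In shHMGA1 the overlapping share was 69.4% of 36 isolated peaks below 150 bp, 79.0% of 257 at 150 to 200 bp, 88.8% of 251 at 500 to 1000 bp and 100% of 71 at 1000 bp or more. In control the same widths gave 45.9% of 37, 56.3% of 238, 83.4% of 181 and 98.4% of 61. Peaks with a neighbour overlapped in 67.0% of cases below 150 bp, 88.7% at 500 to 1000 bp and 98.9% from 1000 bp in shHMGA1, and in 41.8%, 80.5% and 98.2% in control. In the class of 150 to 200 bp, peaks with a neighbour overlapped in 76.7% of cases in shHMGA1 and 56.5% in control. The 95% exact intervals of the isolated shares at that width, 73.5 to 83.8 in shHMGA1 and 49.7 to 62.7 in control, include those values. Between these widths the rise was uneven in shHMGA1. There 76.6% of isolated peaks at 200 to 300 bp and 81.9% at 300 to 500 bp overlapped, against 75.5% and 76.4% of neighbours. In control these 2 widths gave 66.9% and 69.6%, against 61.4% and 62.6% of neighbours.

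Isolated sites were often isolated in both conditions. A total of 479 sites were isolated in both lists, which is 44.1% of the isolated shHMGA1 peaks (interval 41.1 to 47.1) and 49.8% of the isolated control peaks (46.6 to 53.1). At these 479 sites the summits of the lists lay a median of 16 bp apart, and within 50 bp at 407 sites (85.0%). The median width was 337 bp in shHMGA1 and 345 bp in control. The median log2 ratio of widths, shHMGA1 over control, was -0.02, with quartiles of -0.23 and 0.16. The shHMGA1 peak was the wider at 219 sites (45.7%, interval 41.2 to 50.3) and the narrower at 256. For 55716 pairs with a neighbour in both lists, the median ratio was -0.03 and the shHMGA1 peak was the wider in 44.8%. Widths of at least a 2-fold difference were seen at 40 isolated sites (8.35%), against 9.10% of the pairs with a neighbour. At 86 sites the peak was below 200 bp in both lists, at 41 in shHMGA1 only and at 27 in control only.

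Other sites were isolated in 1 list while the other list held additional peaks nearby. Of the isolated shHMGA1 peaks, 418 overlapped a control peak that was not isolated. Within 100 kb of those control peaks, 268 sites had exactly 1 additional control peak and 101 had 2. The 615 additional control peaks had a median area of 283 and a median width of 273 bp, against a median area of 602 over all control peaks and 289 over the control peaks without overlap. Of the isolated control peaks, 187 overlapped an shHMGA1 peak that was not isolated, and 138 of these sites had exactly 1 additional shHMGA1 peak. The 239 additional shHMGA1 peaks had a median area of 273, against 614 over all shHMGA1 peaks and 275 over the shHMGA1 peaks without overlap. All additional peaks in both directions lacked overlap with the other list, which follows almost wholly from the rule. Their small areas were close to those of all peaks without overlap in the same list.

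**Figure D4:**
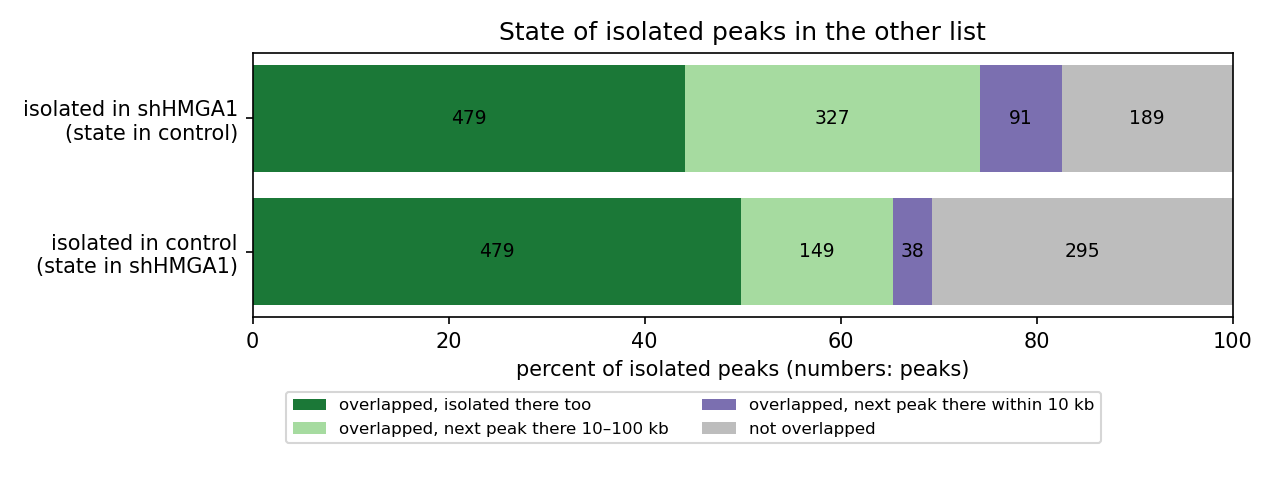
State in the other list of the isolated shHMGA1 peaks (upper bar, state in control) and the isolated control peaks (lower bar, state in shHMGA1), as percent of isolated peaks on the x axis, with the number of peaks in each segment. In both bars 479 peaks are isolated in the other list too; 189 shHMGA1 and 295 control peaks are not overlapped.

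Isolated peaks without overlap were the smallest of the class. Their median width was 246 bp in shHMGA1 and 221 bp in control, against 351 and 362 bp for isolated peaks with overlap. Their median area was 272 in shHMGA1 and 282 in control, against 541 and 592. Over all peaks without overlap the median area was close to theirs, 275 in shHMGA1 and 289 in control. The median width of all those peaks was larger, 362 bp in shHMGA1 and 354 bp in control. Widths below 200 bp made up 34.4% of the isolated peaks without overlap in shHMGA1 and 42.0% in control, against 25.4% and 22.7% of those with overlap. The distance to the nearest peak of the other list had a median of 103 kb for the 189 shHMGA1 peaks and 132 kb for the 295 control peaks. It exceeded 100 kb for 98 shHMGA1 peaks (51.9%, interval 44.5 to 59.2) and for 223 control peaks (75.6%, interval 70.3 to 80.4). Only the sites beyond 100 kb were thus far from any peak of the other list. Others had one close by, within 10 kb for 19 shHMGA1 and 11 control peaks. The control list is the longer, and the part of list length in this contrast was not tested.

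Chromosomes differed widely in their number of isolated peaks. The share of a chromosome's peaks that stood alone was highest on chromosome 10, with 106 of 2881 shHMGA1 peaks (3.68%, interval 3.02 to 4.43) and 93 of 3377 control peaks (2.75%, 2.23 to 3.36). Chromosome 20 followed with 39 of 1225 shHMGA1 (3.18%) and 40 of 1463 control peaks (2.73%), and chromosome 16 with 51 of 1606 (3.18%) and 44 of 1841 (2.39%). Chromosome 21 had the lowest share, with 3 of 3086 shHMGA1 peaks (0.0972%) and 2 of 3440 control peaks (0.0581%). Next lowest were chromosome 13 in shHMGA1 (13 of 3967, 0.328%) and chromosome 4 in both lists (58 of 16958 shHMGA1 peaks, 0.342%, and 43 of 18811 control peaks, 0.229%). In control the third lowest was chromosome 9, with 43 of 11981 (0.359%). Chromosome 19, which is rich in genes, had 20 of 1965 shHMGA1 peaks (1.02%) and 15 of 2067 control peaks (0.726%).

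Per whole chromosome length the chromosomes also differed. Isolated peaks numbered 0.782 per Mb on chromosome 10 in shHMGA1 and 0.686 in control, and 0.0623 and 0.0416 per Mb on chromosome 21. The medians over 22 chromosomes were 0.335 and 0.316 per Mb. Chromosome 10 held 21.3 shHMGA1 peaks of any kind per Mb and chromosome 21 held 64.1. Over the 22 chromosomes, peaks per Mb ran against the isolated share, with a Spearman correlation of -0.936 in shHMGA1 and -0.901 in control. The number of peaks enters both of these values. With isolated peaks per Mb the correlation was weaker, -0.621 in shHMGA1 and -0.590 in control. Sparse chromosomes did not all follow this order per Mb. Chromosome 22 was the sparsest, with 13.8 shHMGA1 and 14.6 control peaks per Mb, yet had 0.331 and 0.195 isolated peaks per Mb, both below the medians. Chromosomes 4 and 9, with many peaks, still had 0.303 and 0.404 isolated shHMGA1 peaks per Mb, with many of their peaks crowded into the dense segments. The share was higher in shHMGA1 than in control on 20 of 22 chromosomes, and lower on chromosomes 13 and 17. The number was higher on 15 chromosomes and lower on 7.

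**Figure D5:**
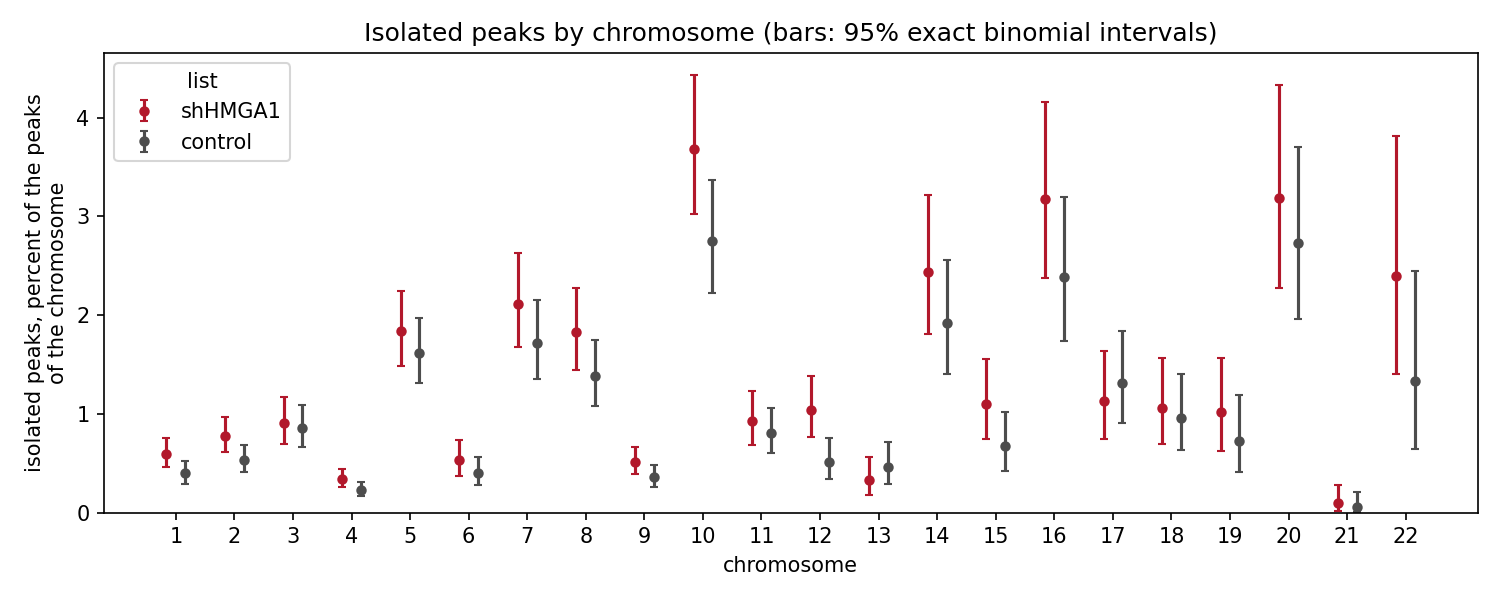
Isolated peaks as percent of the peaks of each chromosome (y axis) for chromosomes 1 to 22 (x axis), shHMGA1 in red and control in grey, with 95% exact binomial intervals. Chromosome 10 is highest in both lists (3.68% and 2.75%) and chromosome 21 lowest (0.0972% and 0.0581%).

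By Giemsa band, isolated peaks lay less often in the gene-rich Giemsa-negative bands than peaks with a neighbour. These bands held 418 isolated shHMGA1 peaks (38.5%, interval 35.6 to 41.5) and 330 isolated control peaks (34.3%, 31.3 to 37.4). They held 45.9% of shHMGA1 and 45.5% of control peaks with a neighbour, and 49.5% and 48.5% outside the dense segments. The bands make up 42.4% of the length. In bands of middle staining (gpos50) the order was turned, with 196 isolated shHMGA1 peaks (18.0%, 15.8 to 20.5) and 174 isolated control peaks (18.1%, 15.7 to 20.7), against 10.9% and 11.6% of peaks with a neighbour outside the dense segments. The darkest bands (gpos100) held 17.2% of isolated shHMGA1 and 20.3% of isolated control peaks, against 20.7% of shHMGA1 and 20.7% of control peaks with a neighbour. Outside the dense segments, 16.2% and 16.7% of peaks with a neighbour lay in them, so the direction in these bands depends on the dense segments. Within 2 Mb of a centromeric band lay 52 isolated shHMGA1 peaks (4.79%) and 33 isolated control peaks (3.43%), against 3.23% and 3.37% of peaks with a neighbour.

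Isolated peaks of large area existed in both lists. No peak was removed here for repeats or poor mapping, and whether any site named below reflects these was not tested. Areas and summit values below are those of each list's own peak, as the caller wrote them, and were not tested between lists. All positions are on hg19. At 3q21.2 on chromosome 3, bases 125634166 to 125636144 held the isolated shHMGA1 peak of largest area. It was 1979 bp wide, with an area of 14324 (rank 779 in its list) and a summit −log10 p of 19.2, and its nearest shHMGA1 peaks were 149 and 166 kb away. The control list had a peak of 1845 bp at the same place with a summit of 19.6, but with another control peak at 14.2 kb. It thus counted as isolated in shHMGA1 and not in control.

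The next 4 isolated shHMGA1 peaks by area were all overlapped in control and not isolated there. They lay on chromosome 13 from 98627658 to 98629849 (13q32.2), chromosome 2 from 99952316 to 99954512 (2q11.2), chromosome 8 from 63950934 to 63952581 (8q12.3) and chromosome 14 from 52117799 to 52119590 (14q22.1). Their areas were 14074, 11630, 10642 and 10580. The nearest other control peak lay 1.13 kb from the overlapping control peak on chromosome 13, 86.4 kb on chromosome 8 and 85.8 kb on chromosome 14. Peaks at these sites were thus called in both lists.

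In control the isolated peak of largest area was on chromosome 3 from 96335983 to 96337386 (3q11.2), 1404 bp wide with an area of 26778 (rank 131) and a summit of 39.4. The shHMGA1 list held a peak of 1420 bp there with a summit of 38.2, and a further shHMGA1 peak at 4.27 kb. The others were on chromosome 7 from 105924354 to 105926249 (7q22.3), chromosome 9 from 72872650 to 72874613 (9q21.12), chromosome 5 from 86563164 to 86564823 (5q14.3) and chromosome 14 from 56046142 to 56048405 (14q22.3). The chromosome 9, 5 and 14 sites were isolated in both lists. Their widths were 1797, 1714 and 1906 bp in shHMGA1 and 1964, 1660 and 2264 bp in control.

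The isolated peaks that lacked overlap were far weaker, even the largest of them. In shHMGA1 the 3 largest were all on chromosome 10. The first lay from 61026161 to 61026494 (10q21.1), with a width of 334 bp, an area of 1279 (rank 31585) and a summit of 8.02, and the nearest control peak was 95.7 kb away. The others lay from 11038739 to 11039283 (10p14; area 1058) and from 72805306 to 72805897 (10q22.1; area 896), with control peaks at 20.8 and 119.6 kb. In control they were on chromosome 12 from 68221215 to 68222443 (12q15; area 1301), chromosome 9 from 117973794 to 117974386 (9q33.1; area 990.4) and chromosome 16 from 49732185 to 49732743 (16q12.1; area 886). Their nearest shHMGA1 peaks were 105.8, 184 and 157 kb away. The largest summit value among isolated peaks without overlap was 8.02 in shHMGA1 and 6.35 in control.

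The loneliest peaks lay near the end of 22q and on chromosomes 16 and 20. In shHMGA1 a peak on chromosome 20 from 41160358 to 41160596 (20q12), 239 bp wide, had its neighbours at 838 and 917 kb. A site on chromosome 22 from 48026949 to 48027840 (22q13.31), 892 bp wide, had neighbours at 832 and 935 kb. The control list held the same site from 48026919 to 48027799 with neighbours at 832 and 935 kb, and its next control peak, from 48963057 to 48963566 (22q13.32), stood 893 kb from the one after it. The third in shHMGA1 lay on chromosome 16 from 7412766 to 7413169 (16p13.3) with an area of 263 and no overlapping control peak. The third in control lay on chromosome 16 from 51795916 to 51796307 (16q12.1), and it was isolated in shHMGA1 too, by 759 kb.

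Some isolated peaks were tall and narrow, and 3 isolated in both lists are named here after their values were seen. On chromosome 6 at 6q11.1, in the centromeric band, a peak of 300 bp from 62283980 to 62284279 in shHMGA1 had a height of 20.6 and a summit of 35.2. In control it was 308 bp wide with a height of 20.7 and a summit of 36.4. On chromosome 9 from 83180587 to 83180721 (9q21.31) the peak had the same 135 bp in both lists, with a height of 9.88 in shHMGA1 and 10.7 in control. At 7q11.22 on chromosome 7 it was 128 bp in shHMGA1, starting at 68201533, and 130 bp in control, starting at 68201531, with heights of 9.56 and 9.68. Whether repeats or poor mapping gave these 3 narrow peaks, with nearly the same edges in both lists, was not tested.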

How the data were processed

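The data were 2 narrowPeak lists without headers, 1 per group of 3 samples, assigned by the group in each list's name. Genrich and hg19 come from the submitters' processing notes. Its version and settings, the aligner and how samples were pooled are not stated in any source read here. In the deposited lists, column 7 is a signal, the area under the significance curve of a peak. The deposited column 8 is the −log10 p at the summit, without adjustment. The deposited score is 1000 times area over width, capped at 1000, within 1 unit in all rows. The q column is −1 throughout. The caller's values depend on read depth and were used within a list. The deposited positions are bases on hg19, printed here from 1.

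Distance was counted from edge to edge. An isolated peak had none within 100 kb, a neighbour lay within 10 kb, and overlap was 1 bp, checked with bedtools 2.31.1. Peaks with a neighbour were weighted over 10 equal parts of the isolated peaks' areas. Intervals are 95% exact binomial (Clopper-Pearson). Bands came from the R package circlize 0.4.16. Dense segments were runs of at least 5 windows of 1 Mb that held, in both lists, 4 or more times the median window's peaks. Sites named were the 5 isolated peaks of largest area, the 3 largest without overlap and the 3 with the longest distance in each list. Chromosomes named were the 3 highest and 3 lowest by share, and chromosome 19. The script was tested on simulated data of 16028 peaks, where 0 peaks were given a wrong class and 0 a wrong overlap. Those peaks lay either within 10 kb or beyond 100 kb of their nearest, so distances between these limits were not tried. Scripts ran in Python 3.11.15 (scipy 1.17.1, pandas 2.3.3, matplotlib 3.10.9, numpy 2.4.6). The members and rules were chosen with earlier results of these data known. Genes and DNA sequence at the sites were not used here.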

Additional observations from a re-analysis of the deposited data

How the results depend on the processing

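Read depth is unknown and limits every count of weak peaks. No paired analysis was possible because the deposited lists hold no values per sample, and leaving out a replicate was not run as the lists do not separate them. Isolated peaks stayed narrower, smaller in area and taller than peaks with a neighbour under each of the 11 alternatives run on these median ratios per list; at equal width their area was the larger. Of 126 values under alternatives, 70 stayed within the counting interval of the main value, or within 1.5 times it for counts. Alternatives on DNA sequence were not run. The cause of the shifts below was not tested.

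With a limit of 50 kb, 4199 shHMGA1 and 3958 control peaks were isolated and 2135 pairs were isolated in both, with width ratios of 0.664 and 0.635 and area ratios of 0.820 and 0.768. With 200 kb the counts were 196 and 171 with 78 pairs, and the shHMGA1 ratios were 0.512 for width and 1.34 for height. Above the joined median area they were 1909 and 1782 with 1112 pairs, with width ratios of 0.686 and 0.670, area ratios of 0.803 and 0.783, an shHMGA1 height ratio of 1.23, and an overlap of isolated shHMGA1 peaks -2.16 points from neighbours of equal area (2.70 in control). Equal numbers gave 2055 and 2070 with 1290 pairs, a ratio of 0.993, width ratios of 0.704 and 0.716, area ratios of 0.825 and 0.792, a control height ratio of 1.23 and an shHMGA1 overlap difference of -4.69 points (2.31 in control). Isolation in both lists left 578 shHMGA1 peaks, a ratio of 0.821 to control and an shHMGA1 width ratio of 0.535. Merging within 150 bp gave a control area ratio of 0.644, and neighbours within 5 kb an shHMGA1 height ratio of 1.33. Without the dense segments the width ratios were 0.628 and 0.615 and the height ratios 1.12 and 1.15. Differences in overlap were 10.9 and 9.43 points with a reciprocal overlap of 50%, -2.57 and -4.64 with 500 bp, and -4.95 and -7.55 when matched on summit −log10 p, and 2.41 and 3.62 when matched on width. Among alternatives chosen after seeing the data, matching on height gave -7.63 and -12.5 points, weighting to the same chromosomes gave width ratios of 0.624 and 0.613 and height ratios of 1.09 and 1.10, and widths of 200 bp or more gave width ratios of 0.690 and 0.664 and area ratios of 0.875 and 0.840. Pairs of values are shHMGA1 and then control.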

Other observations

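Chromosome X, which was left out of the rule, was the sparsest chromosome examined and the richest in lone peaks. Of its 1347 shHMGA1 peaks 176 were isolated (13.1%, 95% exact interval 11.3 to 15.0), and of its 1661 control peaks 169 (10.2%, interval 8.76 to 11.7). It held 8.68 shHMGA1 and 10.7 control peaks per Mb. Isolated peaks there had a median width of 360.5 bp in shHMGA1 and 322 bp in control, against 453 and 449 bp for peaks with a neighbour within 10 kb. Widths below 200 bp made up 19.3% of isolated peaks against 10.3% in shHMGA1, and 26.0% against 11.7% in control. Unlike on chromosomes 1 to 22, the median height of isolated peaks was not above that of neighbours. It was 1.85 against 1.90 in shHMGA1 and 1.83 against 1.89 in control. Overlap with the other list was seen for 154 isolated shHMGA1 peaks (87.5%) and 120 isolated control peaks (71.0%), against 93.3% and 77.8% of peaks with a neighbour there.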
